A study of Mus musculus with 15 samples.

Results

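The cytochrome P450 genes of families 1 to 4 were described in epithelial cells of the mouse small intestine. They were taken as every transcript cluster that carried exactly 1 gene symbol made of Cyp, a digit from 1 to 4 and a letter, which leaves out sterol and bile acid enzymes such as Cyp51 and Cyp27a1. This gave 70 genes of the 19938 with a symbol of their own, in 21 subfamilies, each read by 1 transcript cluster. The mouse reference lists 3 of them, Cyp2d13, Cyp2d37-ps and Cyp4f41-ps, as transcribed pseudogenes. Another 7 clusters carried several symbols that included a P450 of these families, and they were not used, so that 9 further P450 symbols have no value here.

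Transcripts were measured on 15 Affymetrix Mouse Gene 1.0 arrays, which read a gene with probes spread along its transcript, in 5 groups of 3 arrays from adult mice. The groups were Gata4 conditional knockin (cKI) ileum, ileum labelled control, Gata4 conditional knockout (cKO) jejunum, wild-type CD1 jejunum and wild-type CD1 ileum. Gata4 is a transcription factor that is high in jejunum and low in ileum, and the comparisons set the regions, and mice with and without a conditional Gata4 change, against each other. The labels give no genotype for the control mice, no Cre driver or allele, no sex, and no word on pooling or on whether each array stands for its own animal. The p-values therefore cover the spread between these arrays, which may be technical. No jejunal control of the cKO mice is labelled, so that mouse set and deletion cannot be told apart in the comparison with wild-type jejunum.

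Cytochromes P450 are haem enzymes of the endoplasmic reticulum that insert an oxygen atom into their substrates with electrons passed on by a reductase or by cytochrome b5. Families 1 to 3 oxidise drugs and other foreign compounds and, in part, arachidonic acid and steroids, while family 4 hydroxylates fatty acids and their eicosanoid products at the end of the chain. In the enterocyte they form a barrier to ingested compounds, and many are switched on by ligand-activated receptors: the aryl hydrocarbon receptor (Ahr) for Cyp1a genes, the constitutive androstane receptor CAR (Nr1i3) and the pregnane X receptor PXR (Nr1i2) for Cyp2b and Cyp3a genes, and PPAR alpha (Ppara) for Cyp4a genes.

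RefSeq promoter windows on GRCm38.p6, running from 250 bases before to 50 bases after the transcription start, were matched by symbol for 54 of the 70 genes. Printed 5′ to 3′ on the gene's own strand are those of Cyp2b10 and Cyp1a1, for their levels in wild-type jejunum, of the neighbours Cyp2c55, Cyp2c65 and Cyp2c66, which had unlike calls in the jejunum labelled cKO, and of Cyp4f13, for its call in the cKI ileum. Capitals mark GATA words, which are AGATAA or its variant AGATAG, likewise TGATAA or its variant TGATAG, and the core (written GCGTG) of the xenobiotic response element bound by the aryl hydrocarbon receptor, each searched on both strands, with no base shared between marked words of different kinds.
Cyp2b10, chr7:25897408-25897707, plus strand: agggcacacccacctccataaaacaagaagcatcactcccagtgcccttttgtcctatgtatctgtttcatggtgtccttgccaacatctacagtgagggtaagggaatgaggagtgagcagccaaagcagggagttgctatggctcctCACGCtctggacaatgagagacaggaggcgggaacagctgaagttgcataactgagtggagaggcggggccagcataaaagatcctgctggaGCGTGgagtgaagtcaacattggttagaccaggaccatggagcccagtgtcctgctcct
Cyp1a1, chr9:57697363-57697662, plus strand: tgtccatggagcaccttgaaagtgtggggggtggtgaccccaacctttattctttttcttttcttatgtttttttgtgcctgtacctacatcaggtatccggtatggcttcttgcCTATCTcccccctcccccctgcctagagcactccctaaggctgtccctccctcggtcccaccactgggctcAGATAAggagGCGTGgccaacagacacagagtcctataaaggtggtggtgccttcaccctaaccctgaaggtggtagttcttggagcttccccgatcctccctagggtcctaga
Cyp2c55, chr19:39006769-39007068, plus strand: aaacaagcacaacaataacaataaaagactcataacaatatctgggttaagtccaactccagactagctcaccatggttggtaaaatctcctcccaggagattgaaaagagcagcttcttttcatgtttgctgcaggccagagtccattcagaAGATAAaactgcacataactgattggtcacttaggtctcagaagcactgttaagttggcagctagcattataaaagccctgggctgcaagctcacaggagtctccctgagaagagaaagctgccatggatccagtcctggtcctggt
Cyp2c65, chr19:39060756-39061055, plus strand: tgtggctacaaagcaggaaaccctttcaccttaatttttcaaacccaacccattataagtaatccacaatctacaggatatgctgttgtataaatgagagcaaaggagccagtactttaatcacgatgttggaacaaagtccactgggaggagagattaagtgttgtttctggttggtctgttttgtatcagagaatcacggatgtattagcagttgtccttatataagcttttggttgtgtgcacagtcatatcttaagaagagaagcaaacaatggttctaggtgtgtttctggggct
Cyp2c66, chr19:39113648-39113947, plus strand: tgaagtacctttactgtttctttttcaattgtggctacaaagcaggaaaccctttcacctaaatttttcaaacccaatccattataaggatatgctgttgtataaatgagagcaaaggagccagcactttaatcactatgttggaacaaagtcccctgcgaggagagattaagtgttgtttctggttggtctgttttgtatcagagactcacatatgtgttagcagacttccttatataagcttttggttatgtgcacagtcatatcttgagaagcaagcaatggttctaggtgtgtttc
Cyp4f13, chr17:32947312-32947611, minus strand: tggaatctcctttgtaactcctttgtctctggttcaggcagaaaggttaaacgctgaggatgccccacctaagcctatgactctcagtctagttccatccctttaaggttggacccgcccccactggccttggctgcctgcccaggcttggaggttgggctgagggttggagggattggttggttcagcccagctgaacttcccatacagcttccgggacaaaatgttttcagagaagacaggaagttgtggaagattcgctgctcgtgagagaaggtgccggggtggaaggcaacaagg

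In these windows Cyp1a1 held 2 GATA words and 1 xenobiotic response core, Cyp2c55 held 1 GATA word, and Cyp2b10 held 2 cores and no GATA word. The windows of Cyp2c65, Cyp2c66 and Cyp4f13 held neither. A GATA word occurred in 29.8% of the 32851 promoter windows of the mouse table and in 30 of the 54 P450 windows (55.6%). The core occurred in 32.4% of all windows and in 13 of 54 P450 windows (24.1%). The P450 share took the first window of each gene. The share of all windows took every window of every gene, so the bases are unlike, and enrichment was not tested. A match describes the letters of the window and is no evidence of binding. The Cyp2c65 and Cyp2c66 windows were identical at 77.8% of aligned positions, against 54.7% for Cyp2c55 and Cyp2c65. Mouse Cyp2b, Cyp2c, Cyp2d, Cyp2j, Cyp3a, Cyp4a and Cyp4f genes lie in runs of similar copies, so that probes of one may also bind transcripts of another, and single values within these subfamilies, those of Cyp2b9, Cyp4f13 and Cyp4f37 included, are uncertain to that extent.

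Gata4 was at 8.02, 8.43 and 8.17 in the cKI ileum, against 6.71, 7.22 and 6.53 in the control ileum, on the log2 signal scale used throughout. It was at 9.72, 9.88 and 9.93 in the jejunum labelled cKO, against 9.68, 9.45 and 9.47 in wild-type jejunum, and at 5.99, 5.43 and 5.39 in wild-type ileum. The cKI arrays all lay above their controls, whereas the jejunum labelled cKO was not lower than wild type in Gata4 signal (difference 0.31 ± 0.185, SE, adjusted p = 0.322). Which probes of this cluster fall in the deleted part is not given in the sources used here, so its signal does not check the deletion, and the group is called the jejunum labelled cKO. The epithelial genes Epcam, Cdh1, Krt8, Krt18, Krt19, Krt20, Vil1 and Cdx2 were all above the level filter in every group. Of 7 hepatocyte genes Alb, Ahsg, Apoh and Fgb were below it in every group, and 3 were tested. Of these Cps1, which enterocytes also express, differed by 0.49 between wild-type jejunum and ileum (adjusted p = 0.0139) and Tat by -3.93 (adjusted p = 0.000556), while Ttr was not called (-0.01). Tat was also higher in the jejunum labelled cKO than in wild-type jejunum (2.82, adjusted p = 0.0116). Array medians lay between 4.82 and 5.0, and precision is bounded by the 3 arrays per group.

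A gene was tested where at least 1 group mean exceeded 4.91, the median of all deposited values. Of the P450 genes 29 passed and 41 did not. Of the 29, 16 exceeded that level in every group and 5 in a single group. These 5, Cyp1a1, Cyp2c67, Cyp2d13, Cyp4a10 and Cyp4f15, passed through wild-type jejunum alone. All were called higher there than in wild-type ileum, and Cyp1a1, Cyp4a10 and Cyp4f15 were called lower in the jejunum labelled cKO. A gene that passed through the group in which it is high was bound to differ. Those calls are thus no independent support, and counts over the 29 describe those genes alone. Differences are log2 values of the first group minus the second ± the standard error from limma, with n = 3 arrays per group. A gene is called at an adjusted p under 0.05 (limma, Benjamini-Hochberg over all 11784 genes tested). Folds are left out for genes with either mean at or below 4.91.

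**Figure D1:**
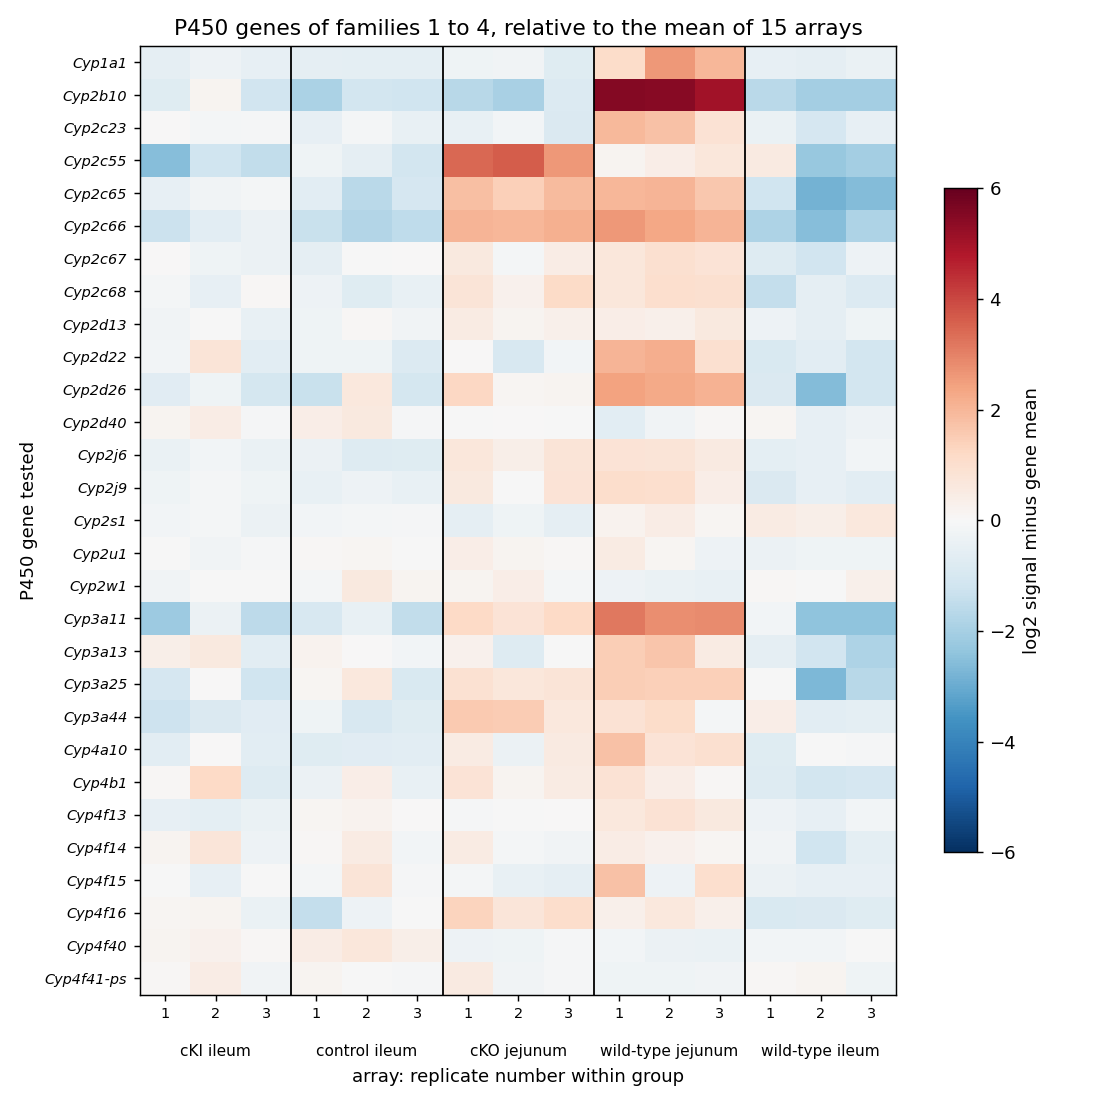
Log2 signal of the 29 tested P450 genes (rows) in the 15 arrays (columns, replicate number within group), each gene relative to its mean over all arrays. Cyp2b10 was high in the 3 wild-type jejunum arrays alone among the 15, and Cyp2c55 was highest in the 3 arrays labelled cKO.

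Most tested P450 genes were higher in wild-type jejunum than in wild-type ileum. Of the 29 genes tested, 21 were higher in jejunum and 1 was lower, and 7 were not called. Over all genes tested 21.3% were called, 13.4% higher and 7.91% lower. Without the level filter, 25 of all 70 P450 genes were called higher, where 7.22% of all genes were, and none was called lower in limma (1 at an unadjusted p under 0.05), where 4.37% of all genes were. The median difference over the 70 genes was 0.32, against -0.03 over all 19938 genes. The quantile-normalised values gave 21 higher and 3 lower. Of the other P450 families (17 genes, 6 tested), 1 was higher and 2 were lower.

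Cyp1a1, which oxidises polycyclic aromatic hydrocarbons, was at 5.42, 6.89 and 6.31 in wild-type jejunum, against 3.80, 3.79 and 3.92 in wild-type ileum. Cyp2b10, the classic CAR target, was at 11.49, 11.48 and 11.03 in wild-type jejunum, against 4.37, 3.97 and 3.97 in wild-type ileum. Neither gene overlapped between the regions, and both lay below the level filter in each wild-type ileal array. The differences were 2.37 ± 0.257 for Cyp1a1 (adjusted p = 9.27e-06) and 7.23 ± 0.330 for Cyp2b10 (adjusted p = 1.67e-09). Cyp1b1 and Cyp1a2, the other family 1 genes, and the other Cyp2b genes did not pass the level filter. Of these Cyp2b9, separated from Cyp2b10 by Cyp2b13 in the mouse reference, differed by 1.21 ± 0.212 in the fit without the filter (adjusted p = 0.000928).

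The Cyp2c genes encode enzymes that oxidise arachidonic acid as well as drugs. Cyp2c66 was at 9.51, 9.23 and 8.93 in wild-type jejunum, against 5.03, 4.34 and 5.03 in wild-type ileum (difference 4.42 ± 0.230, adjusted p = 5.78e-09). Its neighbour Cyp2c65 was at 10.02, 10.03 and 9.61 in wild-type jejunum, against 6.83, 5.15 and 5.41 in wild-type ileum (difference 4.08 ± 0.343, 17.0-fold, adjusted p = 7.74e-07). Both were separated between regions, with wild-type ileum replicate 1 the highest ileal array for Cyp2c65. Cyp2c23, an arachidonic acid epoxygenase, was at 7.42, 7.25 and 6.35 in wild-type jejunum, against 5.11, 4.50 and 4.99 in wild-type ileum (difference 2.14 ± 0.244, adjusted p = 1.48e-05). Cyp2c67 and Cyp2c68 were called higher by 1.55 and 1.81. Cyp2c55, which lies beside Cyp2c65, was at 5.43, 5.68 and 5.95 in wild-type jejunum, against 5.84, 3.01 and 3.24 in wild-type ileum, where replicate 1 overlapped the jejunal arrays (difference 1.66 ± 0.572, adjusted p = 0.0524). Without wild-type ileum replicate 1 its adjusted p was 0.000243.

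Among Cyp2d genes, relatives of the human drug oxidase CYP2D6, Cyp2d26 was at 11.99, 11.83 and 11.63 in wild-type jejunum, against 8.69, 6.95 and 8.47 in wild-type ileum. Cyp2d22 was at 8.61, 8.78 and 7.54 in wild-type jejunum, against 5.69, 5.94 and 5.46 in wild-type ileum. The regions did not overlap for either gene, and Cyp2d26 varied more among ileal than among jejunal arrays. The differences were 3.79 ± 0.496 (13.8-fold, adjusted p = 5.67e-05) for Cyp2d26 and 2.61 ± 0.369 (6.12-fold, adjusted p = 0.000108) for Cyp2d22. The transcribed pseudogene Cyp2d13 was called higher by 0.81, and Cyp2d40 was not called (-0.05 ± 0.205, 95% interval -0.49 to 0.39). Of the Cyp2j genes, whose products epoxidise arachidonic acid, Cyp2j6 was higher by 1.13 ± 0.151 (2.18-fold, adjusted p = 6.88e-05) and Cyp2j9 by 1.48 ± 0.200.

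The Cyp3a genes encode broad drug oxidases. Cyp3a11 was at 10.66, 10.33 and 10.34 in wild-type jejunum, against 7.35, 5.08 and 5.09 in wild-type ileum (difference 4.60 ± 0.525, 24.3-fold, adjusted p = 1.48e-05). Cyp3a25 was at 10.64, 10.59 and 10.59 in wild-type jejunum, against 9.14, 6.46 and 7.48 in wild-type ileum (difference 2.92 ± 0.518, 7.55-fold, adjusted p = 0.000773). In both genes wild-type ileum replicate 1 was the ileal array nearest to jejunum, without overlap. Cyp3a13 was higher by 2.38 ± 0.391 (5.22-fold, adjusted p = 0.000401), and Cyp3a44 was not called (0.87 ± 0.346, adjusted p = 0.0925).

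Called differences in family 4 ran from 0.94 to 1.46. Cyp4f13 was at 9.48, 9.72 and 9.46 in wild-type jejunum, against 8.55, 8.38 and 8.71 in wild-type ileum (difference 1.01 ± 0.110, 2.01-fold, adjusted p = 9.92e-06), with no overlap. Cyp4a10, a fatty acid hydroxylase under PPAR alpha, was higher by 1.46 ± 0.278 (adjusted p = 0.00137), and Cyp4f16 by 1.25 ± 0.278 (2.39-fold, adjusted p = 0.00411). Cyp4b1, Cyp4f14 and Cyp4f15 were called higher by 1.41, 0.94 and 1.29. Leaving out 1 array ended those calls, for Cyp4b1 without wild-type ileum replicate 2 or jejunum replicate 1 (adjusted p = 0.0513 to 0.0749). For Cyp4f14 it was ileum replicates 2 or 3 or jejunum replicates 1 or 2 (0.0562 to 0.138), and for Cyp4f15 ileum replicates 2 or 3 or jejunum replicates 1 or 3 (0.0617 to 0.116). Cyp2w1 was the gene called lower (-0.49 ± 0.163, 1.40-fold, adjusted p = 0.0457), a call lost without any one of the 6 arrays (0.0515 to 0.174) and without the level filter (0.0673). Cyp2s1, a P450 of epithelia, and Cyp4f40 were not called (-0.23 ± 0.117, adjusted p = 0.188, and -0.19 ± 0.112, adjusted p = 0.263), nor was Cyp2u1, a fatty acid hydroxylase (0.39 ± 0.153, adjusted p = 0.0839).

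**Figure D2:**
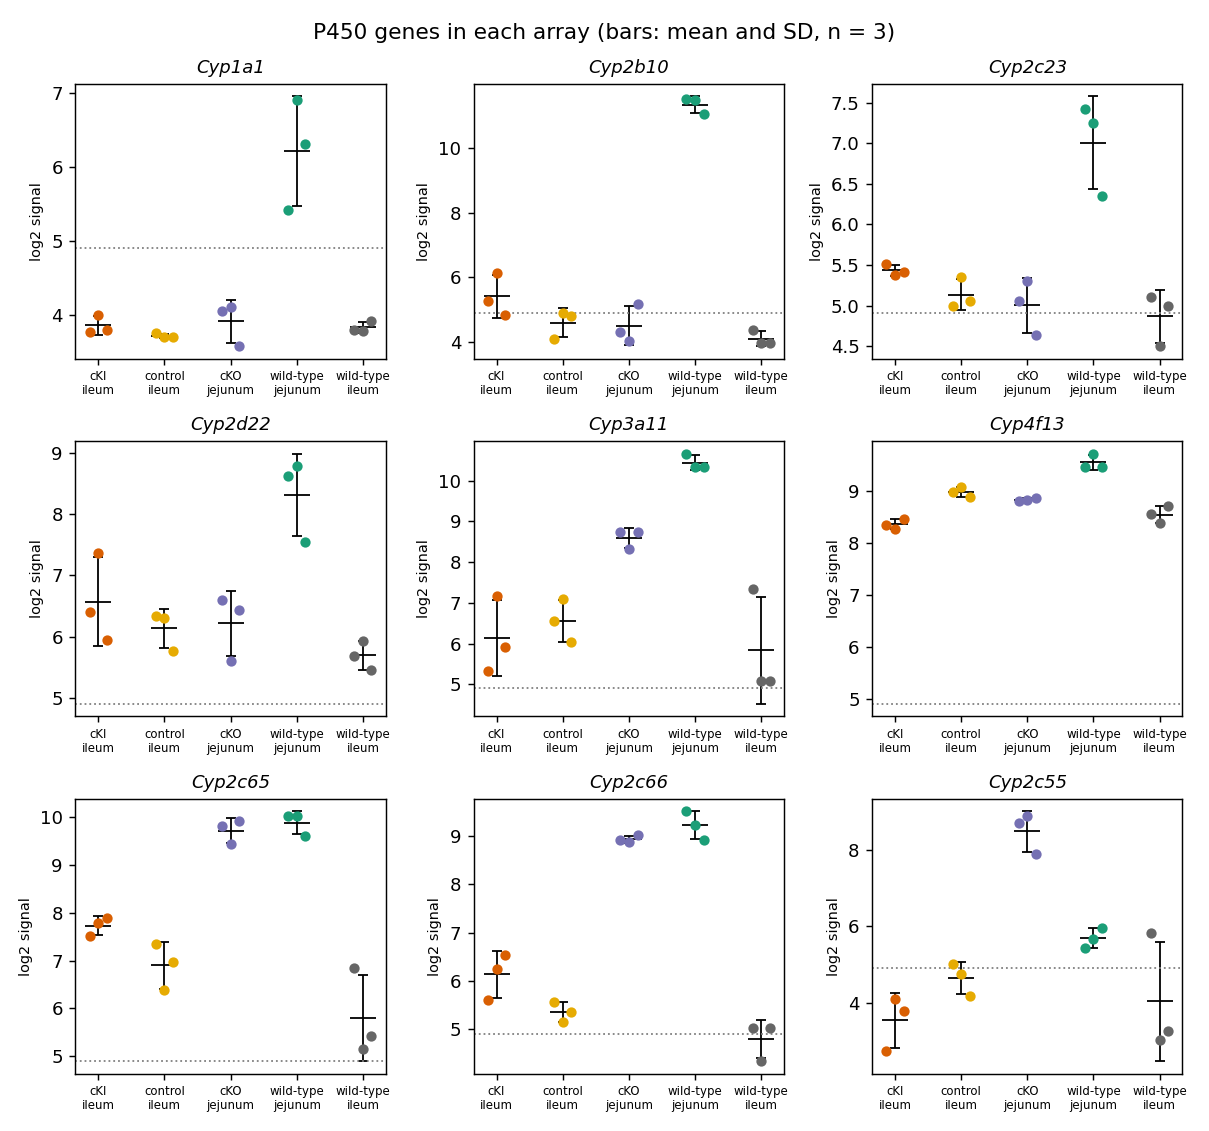
Log2 signal of 9 P450 genes in each of the 15 arrays (points), with group mean and SD (bars, n = 3) and the level filter of 4.91 as a dotted line where it falls in range; vertical axes differ between genes. Cyp1a1, Cyp2b10, Cyp2c23 and Cyp2d22 were high in wild-type jejunum and low in the jejunum labelled cKO, Cyp2c65 and Cyp2c66 were high in both, and Cyp2c55 was highest in the jejunum labelled cKO.

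In the jejunum labelled cKO, Cyp2b10 and Cyp1a1 lay at or near the signal seen in wild-type ileum, and Cyp2c65 and Cyp2c66 overlapped wild-type jejunum. Cyp2c55, which was not called between regions, rose above every other array. Of the 29 genes tested, 2 were called higher and 11 lower than in wild-type jejunum, where 5.17% and 7.65% of all genes were, 12.8% in all. Without the level filter the counts over the 70 genes were 2 and 11, where 3.34% and 4.05% of all genes were called. The genes differed in part. Cyp4f15 (adjusted p = 0.0571, limma) and Cyp2w1 (0.0665) were no longer called, while Cyp2b9 was called lower and Cyp2j11 higher. The median difference over the 70 genes was -0.06, against 0.03 over all genes. Of the 21 P450 genes called higher in wild-type jejunum than ileum, 10 were called lower in the jejunum labelled cKO. Of the 1575 such genes among all tested, 705 were. The comparison of the regions and that of the jejunum labelled cKO share the wild-type jejunum arrays. The count of 13 called genes was 7 without wild-type jejunum replicate 1 or without cKO jejunum replicate 2.

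Cyp2b10 was at 4.32, 4.04 and 5.18 in the jejunum labelled cKO, against 11.49, 11.48 and 11.03 in wild-type jejunum. Cyp1a1 was at 4.05, 4.11 and 3.58 in the jejunum labelled cKO, against 5.42, 6.89 and 6.31 in wild-type jejunum. Each gene fell below the level filter in the mean of the arrays labelled cKO, with no overlap between groups. The differences were -6.82 ± 0.330 for Cyp2b10 (adjusted p = 5.54e-09) and -2.29 ± 0.257 for Cyp1a1 (adjusted p = 3.18e-05). Cyp2b9 differed by -1.07 ± 0.212 in the fit without the level filter (adjusted p = 0.00462).

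Cyp2c23 was at 5.06, 5.31 and 4.64 in the jejunum labelled cKO, against 7.42, 7.25 and 6.35 in wild-type jejunum (difference -2.01 ± 0.244, 4.02-fold, adjusted p = 6.79e-05). Cyp2d22 was at 6.60, 5.61 and 6.44 in the jejunum labelled cKO, against 8.61, 8.78 and 7.54 in wild-type jejunum (difference -2.09 ± 0.369, 4.26-fold, adjusted p = 0.00151). Both fell with no overlap, and their calls held without each of the 6 arrays in turn. Cyp4f13 was at 8.80, 8.84 and 8.87 in the jejunum labelled cKO, against 9.48, 9.72 and 9.46 in wild-type jejunum (difference -0.72 ± 0.110, 1.64-fold, adjusted p = 0.000501). Cyp2s1, which was not called between regions, differed by -0.70 ± 0.117 (1.63-fold, adjusted p = 0.000954).

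Cyp3a11 was at 8.73, 8.31 and 8.73 in the jejunum labelled cKO, against 10.66, 10.33 and 10.34 in wild-type jejunum, and stood at 7.35, 5.08 and 5.09 in wild-type ileum. Its 3 arrays labelled cKO thus lay between the wild-type regions. Group means also lay between them for Cyp3a13, Cyp2d26 and Cyp4a10, and for every other gene called lower except Cyp2s1. The differences were -1.85 ± 0.525 for Cyp3a11 (3.60-fold, adjusted p = 0.0304), -1.39 ± 0.391 for Cyp3a13 (2.62-fold, adjusted p = 0.029) and -1.74 ± 0.496 for Cyp2d26 (3.35-fold, adjusted p = 0.0307). Cyp4a10 differed by -0.96 ± 0.278 (adjusted p = 0.0341) and Cyp4f15 by -1.21 ± 0.374 (adjusted p = 0.0466). Cyp4f15 was at 4.14, 3.84 and 3.72 in the jejunum labelled cKO, against 6.05, 3.98 and 5.29 in wild-type jejunum, with overlap. Leaving out 1 array ended the Cyp3a11 call for each of the 6 (adjusted p = 0.0546 to 0.1), and the Cyp2d26 call for each except cKO replicate 1 (0.0561 to 0.11). The Cyp3a13 call ended without wild-type jejunum replicates 1 or 2 or cKO replicate 2 (0.109 to 0.129), and that of Cyp4a10 without wild-type jejunum replicate 1 or cKO replicate 2 (0.157 to 0.167). The Cyp4f15 call ended without any array but wild-type jejunum replicate 2 (0.0601 to 0.211), and without the level filter (0.0571).

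Cyp2c65 was at 9.81, 9.43 and 9.92 in the jejunum labelled cKO, against 10.02, 10.03 and 9.61 in wild-type jejunum. Cyp2c66 was at 8.91, 8.88 and 9.02 in the jejunum labelled cKO, against 9.51, 9.23 and 8.93 in wild-type jejunum. In both genes the groups overlapped, and all arrays labelled cKO lay above every ileal array. The differences were -0.16 ± 0.343 (95% interval -0.90 to 0.57, adjusted p = 0.821) for Cyp2c65 and -0.29 ± 0.230 (95% interval -0.78 to 0.20, adjusted p = 0.483) for Cyp2c66. Other genes called higher in wild-type jejunum than ileum but not called here were Cyp2c67, Cyp2c68, Cyp2d13, Cyp2j6, Cyp2j9, Cyp3a25, Cyp4b1, Cyp4f14 and Cyp4f16, with differences from -0.64 ± 0.518 (Cyp3a25) to 0.62 ± 0.278 (Cyp4f16).

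Cyp2c55 was at 8.71, 8.90 and 7.90 in the jejunum labelled cKO, against 5.43, 5.68 and 5.95 in wild-type jejunum. Its difference of 2.82 ± 0.572 (7.05-fold, adjusted p = 0.00403) was opposite in sign to the called difference of its subfamily member Cyp2c23. Cyp2c65 and Cyp2c66 were not called. Without the level filter 5 of the 13 Cyp2c genes, Cyp2c55 included, had a positive difference. For Cyp2c55 the arrays labelled cKO also exceeded all arrays of the ileal groups, which ran up to 5.84. Cyp2w1 was the other gene called higher (0.52 ± 0.163, 1.44-fold, adjusted p = 0.048), a call that ended without any array but cKO replicate 3 (0.0927 to 0.186) and without the level filter (0.0665).

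**Figure D3:**
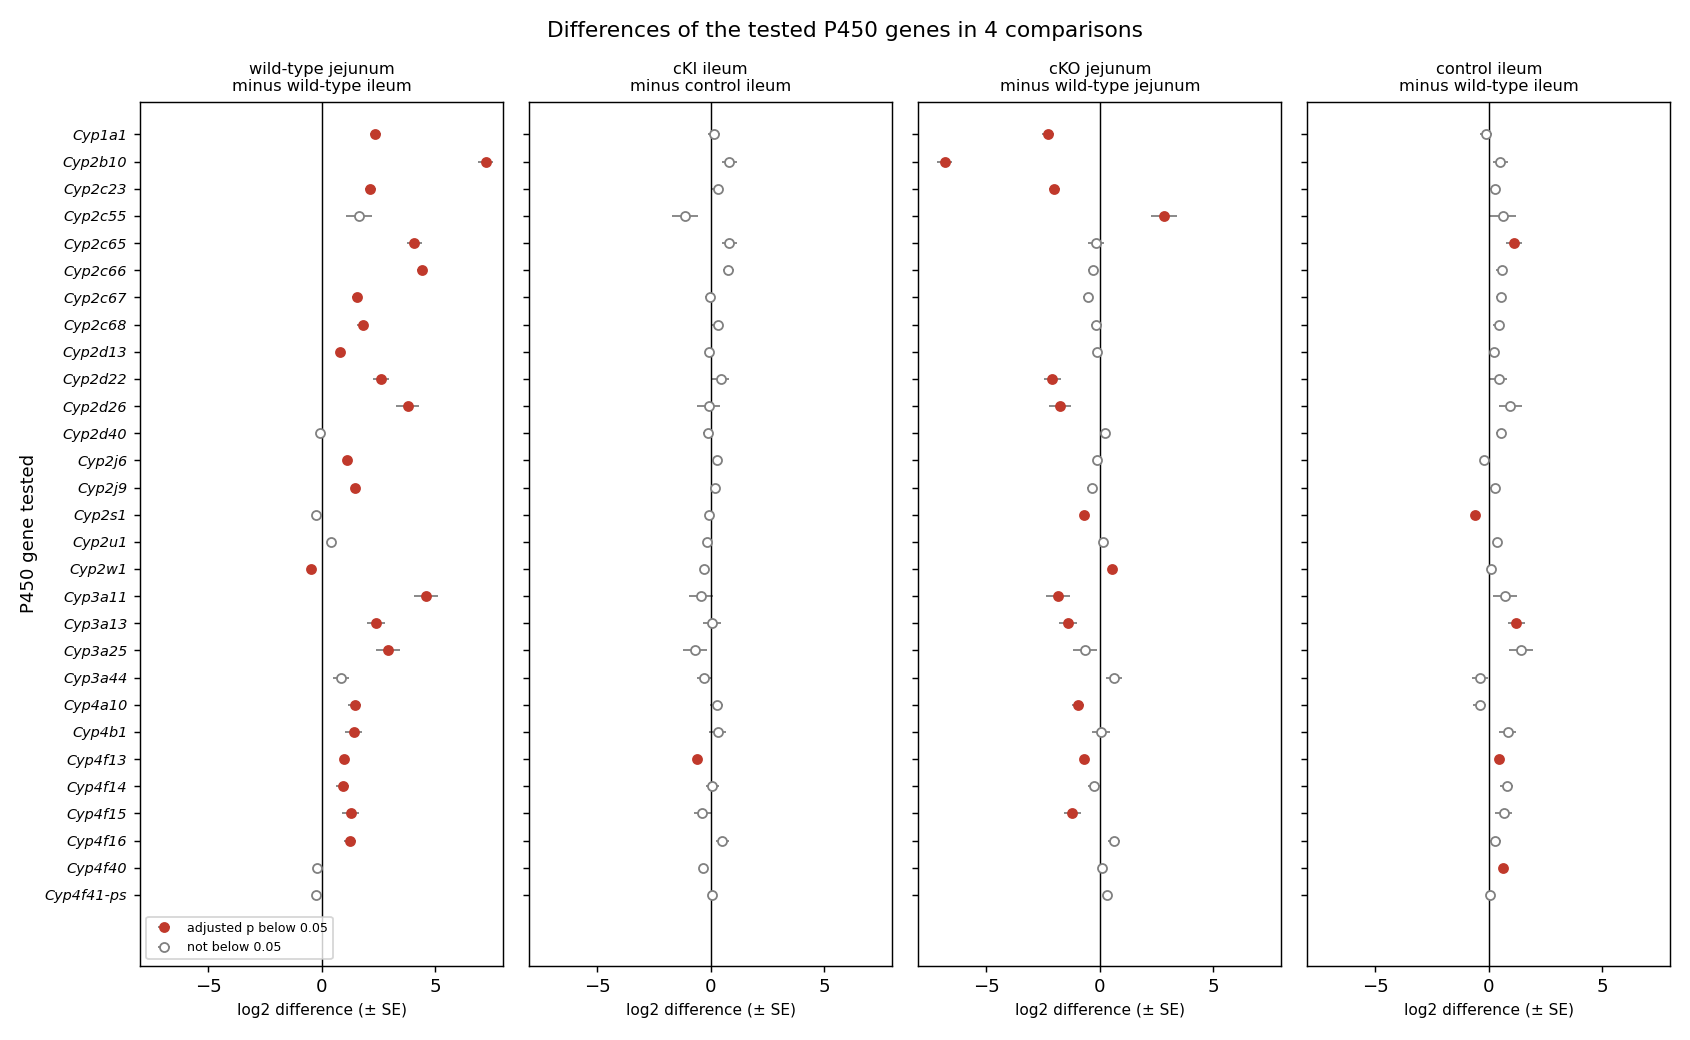
Log2 difference ± SE of the 29 tested P450 genes in the 4 comparisons, first-named group minus second; filled points have an adjusted p under 0.05. In the first panel 21 genes are filled on the right, in the second 1 gene (Cyp4f13) is filled, on the left.

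In the cKI ileum 1 P450 gene passed the test against the control ileum. Of the 29 genes tested, none was called higher and 1, Cyp4f13, was called lower, where 0.339% and 0.424% of all genes were called in limma, 0.764% in all. At an unadjusted p under 0.05 the counts were 3 higher and 2 lower. Cyp4f13 was at 8.35, 8.28 and 8.47 in the cKI ileum, against 8.98, 9.08 and 8.88 in the control ileum (difference -0.61 ± 0.110, 1.53-fold, adjusted p = 0.0204). The groups did not overlap. The sign is opposite to that between jejunum and ileum, where Cyp4f13 was higher in jejunum, and it fell in the jejunum labelled cKO as well. With the replicate number as a block within sets of mice its adjusted p was 0.0597, and in a fit of these 2 groups only it was 0.0912. Leaving out control replicate 2 gave 0.0833, and leaving out cKI replicate 1 or 2 gave 0.0799 and 0.0623.

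Of the 21 P450 genes called higher in wild-type jejunum than ileum, Cyp4f13 was the 1 called in the cKI ileum, where it was lower. Among all 1575 genes called higher in wild-type jejunum, 25 were called higher in the cKI ileum and 1, Cyp4f13 itself, lower. Cyp2b10 was at 5.28, 6.14 and 4.83 in the cKI ileum, against 4.09, 4.90 and 4.81 in the control ileum, with overlap (difference 0.82 ± 0.330, 95% interval 0.11 to 1.52, adjusted p = 0.269). Cyp2c65 was at 7.51, 7.79 and 7.90 in the cKI ileum, against 7.35, 6.38 and 6.98 in the control ileum (difference 0.83 ± 0.343, adjusted p = 0.28). Cyp2c66 was at 5.61, 6.26 and 6.55 in the cKI ileum, against 5.56, 5.15 and 5.36 in the control ileum (difference 0.78 ± 0.230, adjusted p = 0.142). None of these 3 differences passed the test, and they were the largest positive ones among the tested P450 genes. In the last 2 genes each cKI array lay above each control array. The share of all genes separated in this way was not counted. Cyp1a1 stayed between 3.70 and 4.01 in all 6 arrays (0.14 ± 0.257, 95% interval -0.41 to 0.69). Cyp2c55 was at 2.71, 4.08 and 3.79 in the cKI ileum, against 5.0, 4.74 and 4.18 in the control ileum (difference -1.11 ± 0.572, adjusted p = 0.369). Of the 21 genes called higher in wild-type jejunum, 14 had a positive difference in the cKI ileum (66.7%), against 65.1% of the 1575 such genes among all tested, and these comparisons share no arrays. Without the level filter none of the 70 was called higher and 1 lower, where 0.0953% and 0.166% of all genes were (3 and 3 at an unadjusted p under 0.05). The median difference over the 70 genes was 0.02, against 0.01 over all genes.

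The control ileum and the wild-type CD1 ileum, which differ by no Gata4 change named in the labels, also differed. Gata4 signal itself, given above, was higher in each control ileum array than in each wild-type ileum array. Its part in the differences below was not tested. Of the 29 genes, 4 were called higher and 1 lower in the control ileum, where 19.3% and 8.61% of all genes were, 27.9% in all. Without the level filter 5 of the 70 were called higher and 2 lower, where 10.4% and 5.71% of all genes were. Cyp4f40 was at 9.85, 10.06 and 9.74 in the control ileum, against 9.25, 9.22 and 9.38 in wild-type ileum (difference 0.60 ± 0.112, 1.52-fold, adjusted p = 0.00126). Cyp2s1 was at 9.06, 9.13 and 9.19 in the control ileum, against 9.75, 9.60 and 9.87 in wild-type ileum (difference -0.61 ± 0.117, 1.53-fold, adjusted p = 0.00151). Neither gene overlapped between the sets of mice, and Cyp2s1 was also lower in the jejunum labelled cKO than in the wild-type jejunum. Cyp4f13 was higher by 0.43 ± 0.110 (1.35-fold, adjusted p = 0.00958, or 0.0512 without wild-type ileum replicate 2). Cyp3a13 was higher by 1.21 ± 0.391 (2.32-fold, adjusted p = 0.0314) and Cyp2c65 by 1.10 ± 0.343 (2.15-fold, adjusted p = 0.0265). The Cyp3a13 call was lost without any array but wild-type ileum replicate 1 (0.0533 to 0.139), and that of Cyp2c65 without wild-type ileum replicates 2 or 3 or control ileum replicates 1 or 3 (0.0712 to 0.127). Leaving out wild-type ileum replicate 1 raised the 5 calls to 10, and leaving out its replicate 2 left 2. Median differences were 0.08 over the 70 genes and 0.00 over all genes.

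Genes that work with P450s or in haem turnover were listed beside the family. The list also held Hmox1, Hmox2, Blvra and Blvrb, which act in haem breakdown. Of 15 tested genes for electron transfer and haem supply or breakdown, 8 were higher in wild-type jejunum than ileum. None was lower in limma (0 also at an unadjusted p under 0.05). Over all genes 13.4% were called higher and 7.91% lower. Cyb5r3, the cytochrome b5 reductase, was at 12.21, 12.12 and 11.84 in wild-type jejunum, against 10.08, 9.69 and 9.84 in wild-type ileum (difference 2.18 ± 0.180, 4.54-fold, adjusted p = 7.16e-07). Pgrmc2, a haem-binding membrane protein, was higher by 1.42, Cyb5b, an outer mitochondrial cytochrome b5, by 0.75, and Ppox, of haem synthesis, by 0.77. In the jejunum labelled cKO 1 of the 15 was higher than in wild-type jejunum and 6 were lower, where 5.17% and 7.65% of all genes were. Pgrmc2 was at 6.28, 6.41 and 6.71 in the jejunum labelled cKO, against 7.91, 7.86 and 7.91 in wild-type jejunum, without overlap. Ppox, Cyb5a, the microsomal cytochrome b5, and Cyb5b differed there by -0.58, -0.56 and -0.46. In the cKI ileum limma called none of the 15 (2 higher and 0 lower at an unadjusted p under 0.05), and 6 were higher and 1 lower in control than in wild-type ileum, where 19.3% and 8.61% of all genes were.

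Ephx2, the soluble epoxide hydrolase that opens the epoxides made by Cyp2c and Cyp2j enzymes, was at 10.80, 10.84 and 10.47 in wild-type jejunum, against 6.14, 5.48 and 6.10 in wild-type ileum (difference 4.80 ± 0.313, 27.8-fold, adjusted p = 6.46e-08). In the jejunum labelled cKO it was at 9.52, 8.28 and 9.11, between the wild-type regions with a difference from wild-type jejunum of -1.73 ± 0.313 (3.32-fold, adjusted p = 0.00176). It did not pass in the cKI ileum (0.09 ± 0.313). Ephx1, the microsomal hydrolase, was higher in wild-type jejunum than ileum by 1.07 ± 0.217 (adjusted p = 0.00214), and differed by 0.19 ± 0.217 between the jejunum labelled cKO and wild type.

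Of 20 tested receptors and factors that control P450 genes, 9 were higher and 2 lower in wild-type jejunum than ileum, where 13.4% and 7.91% of all genes were. Nr1i3, the CAR receptor that acts on Cyp2b10, was at 7.80, 8.24 and 7.66 in wild-type jejunum, against 4.26, 4.53 and 4.82 in wild-type ileum (difference 3.36 ± 0.198, adjusted p = 2.23e-08). In the jejunum labelled cKO it was at 5.98, 5.72 and 6.19, with a difference from wild-type jejunum of -1.93 (adjusted p = 1.37e-05) and with each array above every wild-type ileal array. In the cKI ileum Nr1i3 was at 6.23, 6.83 and 6.15, against 5.59, 5.52 and 5.52 in the control ileum, without overlap (difference 0.86 ± 0.198, adjusted p = 0.0633). Nfe2l2, the factor NRF2 of the oxidative stress response, was higher in wild-type jejunum by 1.44 and Hnf4g, an enterocyte nuclear receptor, by 0.89, while Nr1h4 (FXR), which senses bile acids, was lower (-1.77). In the jejunum labelled cKO 4 of the 20 were higher, among them Nr1h4 (1.29) and Nr0b2, the repressor SHP (1.00), and 6 were lower, among them Nfe2l2 (-0.73), where 5.17% and 7.65% of all genes were called. In the cKI ileum limma called none (3 higher and 3 lower at an unadjusted p under 0.05), and in the control ileum 8 were higher and 1 lower than in wild-type ileum, where 19.3% and 8.61% of all genes were.

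The receptors of the other induced subfamilies, named here for that role after their values were seen, had smaller differences than Nr1i3. Ahr was at 7.18, 7.15 and 7.12 in wild-type jejunum, against 6.83, 6.80 and 6.63 in wild-type ileum, and at 7.0, 6.65 and 6.62 in the jejunum labelled cKO. Its differences were 0.40 ± 0.109 between wild-type regions (1.32-fold, adjusted p = 0.0153) and -0.40 ± 0.109 in the jejunum labelled cKO (1.32-fold, adjusted p = 0.0249). Nr1i2 was higher in wild-type jejunum than ileum by 0.58 (adjusted p = 0.007) and differed by -0.35 in the jejunum labelled cKO (adjusted p = 0.123). For Ppara these differences were 0.60 (adjusted p = 0.0127) and -0.73 (adjusted p = 0.00657).

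**Figure D4:**
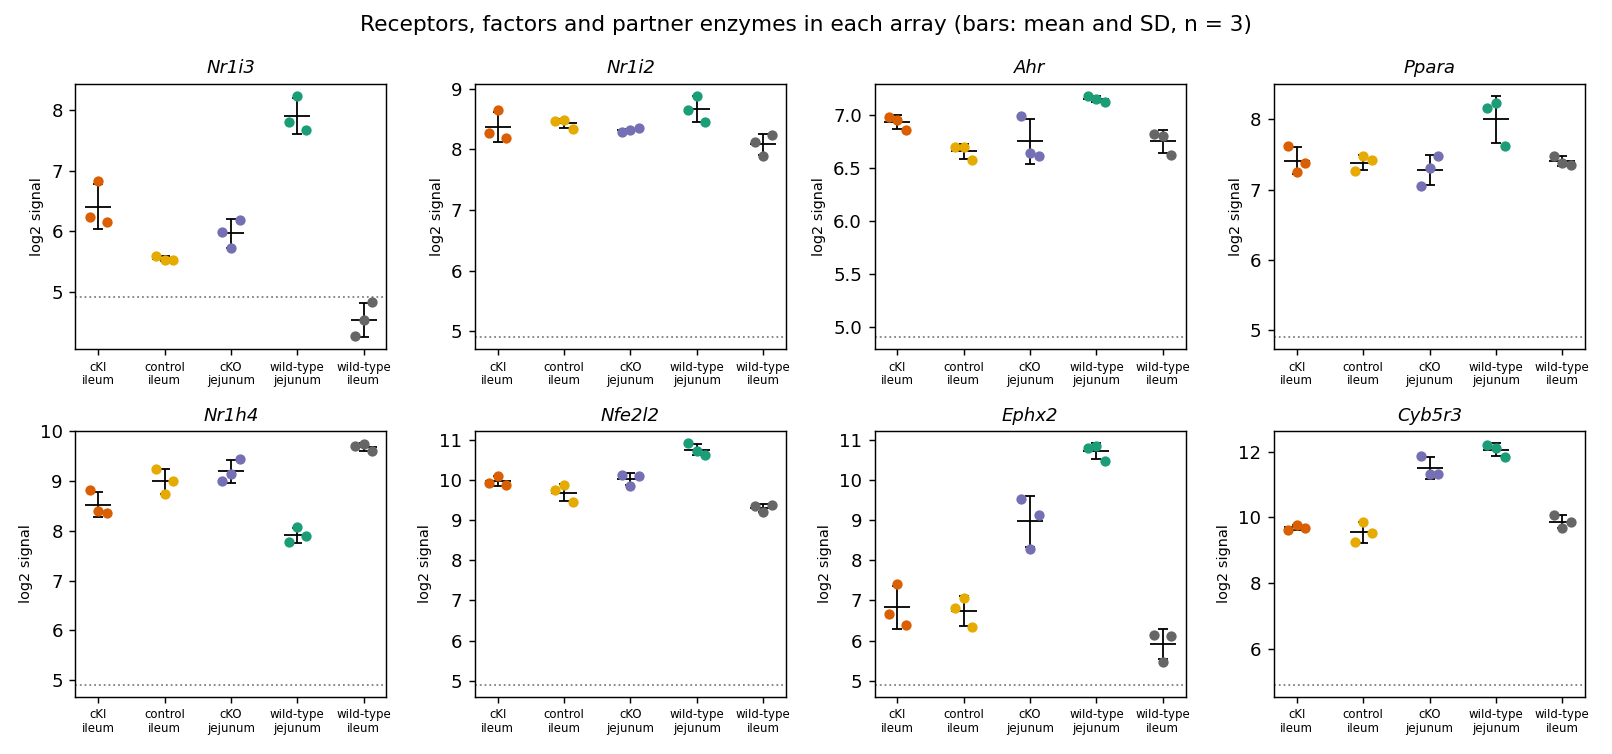
Log2 signal of 8 receptors, factors and partner enzymes in each of the 15 arrays (points), with group mean and SD (bars, n = 3) and the level filter of 4.91 dotted; vertical axes differ between genes. Nr1i3 and Ephx2 were high in wild-type jejunum, intermediate in the jejunum labelled cKO and low in wild-type ileum, and Nr1h4 ran the other way.

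Markers of other cells moved with some groups, and their part in the P450 differences was not tested. Beside the counts below, 13.4% of all genes were called higher and 7.91% lower in wild-type jejunum than ileum. These shares were 5.17% and 7.65% in the jejunum labelled cKO, and 0.339% and 0.424% in the cKI ileum. In the control against wild-type ileum they were 19.3% and 8.61%. Of 12 tested stromal and smooth muscle genes 8 were lower and none higher in limma in wild-type jejunum than ileum (12 lower and 0 higher at an unadjusted p under 0.05), with the log2 of the summed signal of all 14 at 8.58 to 8.75 in wild-type jejunum and 9.25 to 9.67 in wild-type ileum. It ran from 8.86 to 9.06 in the jejunum labelled cKO, where 1 gene was higher than in wild-type jejunum. In the cKI ileum it ran from 9.15 to 9.53, against 9.49 to 10.88 in the control ileum, with 2 genes lower. In limma the 9 tested proliferation genes showed no call between wild-type regions or in the jejunum labelled cKO (0 at an unadjusted p under 0.05), nor in the cKI ileum (1 higher), and 3 were higher in the control than in wild-type ileum. For immune genes 3 of 9 were lower in wild-type jejunum than ileum, with sums from 9.30 to 9.80 in jejunum and 9.82 to 10.14 in ileum. Their sums ran from 9.46 to 9.67 in the jejunum labelled cKO, where limma called none (1 higher and 0 lower at an unadjusted p under 0.05). In the cKI ileum the immune sums ran from 9.67 to 10.01, against 10.08 to 10.70 in the control ileum, without overlap. There the median difference of the 9 tested was -1.14, and limma called none (5 lower and 0 higher at an unadjusted p under 0.05). Against wild-type ileum 2 of the 9 immune genes tested were higher in the control ileum. Of the 12 stromal genes tested 3 were higher and 2 lower there, where 19.3% and 8.61% of all genes were. Of the 8 epithelial genes 3 were lower in wild-type jejunum than ileum and 3 were higher in the jejunum labelled cKO than in wild-type jejunum. Against wild-type ileum 2 of the 8 were higher in the control ileum. In the cKI ileum limma called none (0 higher and 1 lower at an unadjusted p under 0.05), with a median difference of -0.18. In these bulk samples fewer cells of a type and less RNA per cell cannot be told apart.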

How the data were processed

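RNA of isolated small intestinal epithelial cells was read on Affymetrix Mouse Gene 1.0 arrays, per the labels. The deposited values are log2 signals, 1 per transcript cluster (35556), made in Partek per the submitters' processing notes. Its version and its background correction, normalization and summarization are not given in the sources used here. Groups came from sample titles. Of the clusters 21789 carried 1 symbol, and the cluster with the highest mean stood for a symbol. All 15 arrays entered 1 linear model of group means (R 4.3.3, limma 3.58.1, 10 residual degrees of freedom), without pairing by replicate number. It was tested on simulated data with independent arrays, which cannot show what leaving out the pairing does. The members and lists were chosen with earlier results of these data known. Called members were named, largest differences first, with up to 4 genes per other list and comparison by smallest p. Deviations from group means of same-numbered arrays correlated at 0.161 to 0.334 between wild-type regions and 0.128 to 0.258 between cKI and control ileum. All lay over 0.1, the limit set for pairing, so these arrays may be paired. The standard errors, intervals and p-values of these comparisons leave that out, except in the fits with replicate blocks. In the other comparisons the correlations of same-numbered arrays ran from -0.265 to 0.185, so the numbers did not pair those arrays. The alternatives were other filters, quantile or median scaling, 2 groups only, array weights, cluster means, replicate blocks and each array left out.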

Additional observations from a re-analysis of the deposited data

How the results depend on the processing

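Of the P450 genes called, 22 between wild-type regions became 18 to 25 under the alternatives, and 18 to 23 with 1 array left out. The 1 call in the cKI ileum became 0 with arrays of the 2 groups only and 0 with the replicate block within sets of mice, and 0 to 1 with 1 array left out. The 13 calls in the jejunum labelled cKO became 10 to 13 under the other alternatives, of which the replicate block gave 11 within sets and 10 over all arrays, and 7 to 10 with 1 array left out. The 5 calls in the control against wild-type ileum became 8 with array weights, 8 with the replicate block within sets of mice, and 2 to 10 with 1 array left out. The cause was not tested. No difference of a named gene changed sign, 681 single-gene values kept their call, 71 lost it and 5 gained one. Quantile scaling moved the share of all called genes that were higher to 52.0% between regions (62.8% as deposited), 33.7% in the cKI ileum (44.4%), 51.2% in the jejunum labelled cKO (40.3%) and 47.9% in the control ileum (69.1%, or 58.6% with median centring), where the median difference of all genes was -0.02 with quantile scaling and 0.08 as deposited. Of all genes 90 were called in the cKI ileum, against 52 without the filter, 19 with 2 groups only and 766 with array weights, which also called 3967 genes between regions (2507 without). With 2 groups only, 979 genes were called in the jejunum labelled cKO (1510 with all arrays). Signal below the level filter limits what can be said of the 41 genes not tested.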

Other observations

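Cyp2j11, a Cyp2j gene that did not pass the level filter, differed by 0.53 ± 0.131 between the jejunum labelled cKO and wild-type jejunum in the fit without that filter (adjusted p = 0.0207, limma). Cyp4f37, also below it, was higher in wild-type jejunum than ileum by 0.35 ± 0.101 (adjusted p = 0.0305) and in the control than in wild-type ileum by 0.37 ± 0.101 (adjusted p = 0.021).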
